A study of Mus musculus with 6 samples.

Results

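The 37 genes described here encode cyclins, cyclin-dependent kinases, replication factors and mitotic proteins of the mouse. They were chosen as a list by name and split by textbook role into 18 genes of the G1/S transition and DNA synthesis and 19 genes of G2 and mitosis. Every probe whose RefSeq accession belongs to one of them was taken. That gave 48 of the 55681 probes on the array, and 37 of the 19897 genes that could be matched. A probe entered the tests when at least 2 of the 6 arrays read it well above background. That left 47 probes of 36 genes, 21 of them G1/S probes and 26 G2/M probes, and the single probe of Ccne2 (cyclin E2) was not above background on any array. Of the 47 probes, 32 were above background on all 6 arrays.

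The study measured RNA in cells sorted by flow cytometry from the spinal cord of embryos at E12.5. All embryos carried the Hb9::GFP reporter, in which GFP marks motor neurons. Labels give the knockout embryos as mir-17~92 -/- ; Hb9::GFP and the others as WT ; Hb9::GFP, with the mir-17~92 microRNA cluster lost in the first. They do not say how the deletion was made, or whether arrays came from single embryos or pools. The GFP-on fraction (motor neurons) was hybridised to 2 arrays for the knockout label and 2 for the wild-type label. The GFP-off fraction (non-motor neurons) was hybridised to 1 array for each label. Because nothing says that replicate arrays came from separate animals, p-values measure only the spread between these arrays, which may be technical.

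A dividing cell makes cyclin D with CDK4 and cyclin E with CDK2 to leave G1, loads the MCM helicase on its origins with the help of CDC6, and then copies its DNA. Cyclin A, cyclin B and CDK1 drive entry into mitosis, where the spindle checkpoint proteins (BUB1, BUBR1, TTK) and the CDC20-activated ubiquitin ligase time the parting of chromosomes. In the developing spinal cord these genes are expressed by progenitors of the ventricular zone, and motor neurons switch them off as they leave the cell cycle.

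Signals are given throughout as log2 of the processed signal minus the array's 75th percentile, so 0 is the 75th percentile of that array. That percentile differed widely, at 59.9 and 506 intensity units for knockout-labelled motor neurons, 48.5 and 64.5 for wild-type-labelled motor neurons, and 550 and 340 for non-motor neurons of the knockout and wild-type labels. Spots well above background made up 41.0% to 62.3% of each array, and precision is limited by how few arrays there are. Mir17hg, the host gene of the cluster, lay between 4.55 and 4.78 on the 3 knockout-labelled arrays and between -2.38 and 2.73 on the wild-type-labelled ones, which goes against the labels if its probe lies in the deleted part. Genotypes are therefore called by their labels. The wild-type-labelled motor neuron arrays stood apart. Over the 32 member probes above background on all arrays, replicate 2 correlated at 0.837 with replicate 1 and at 0.564 to 0.69 with the other 4 arrays, which among themselves correlated at 0.958 to 0.991. The median SD between the replicates over the 47 member probes was 0.28 in knockout-labelled and 0.901 in wild-type-labelled motor neurons. Over all tested probes it was 0.308 and 0.469. Over 19075 probes above background on all arrays, wild-type-labelled replicate 2 correlated at 0.736 to 0.806 with the arrays of the other groups. The description of each array also carries a tag, shared by knockout-labelled motor neuron replicate 1 with the knockout-labelled non-motor neurons and by wild-type-labelled motor neuron replicate 1 with the wild-type-labelled non-motor neurons, and its meaning is not given. In motor neurons label and slide row cannot be told apart, since row 1 held the knockout-labelled arrays alone and row 2 the rest.

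The proximal promoters of the genes were searched for the motifs by which such genes are usually described. E2F factors act at G1/S promoters. The cell cycle genes homology region (CHR) and CCAAT boxes, bound by NF-Y, are typical of G2/M promoters. RefSeq windows of build GRCm38.p6, from 250 bases before to 50 bases after the start, were found for 29 of the 37 genes. None was used for Aurkb, Ccna2, Ccnd1, Ccnd2, Ccne2, Cdc25c, Mcm4 and Pbk. Shares are of genes, and a gene with more than 1 window, such as Mcm7, was counted if any of them matched. An E2F word (TTTCCCGC, TTTCGCGC, TTTGCCGC or TTTGGCGC) was found for 42.9% of 14 G1/S genes and 6.67% of 15 G2/M genes, against 2.6% of all 27025 genes. A CHR word (TTTGAA or TTTAAA) was found for 35.7% of G1/S and 86.7% of G2/M genes, against 30.6% of all. CCAAT was found for 71.4% and 93.3%, against 41.1% of all. Both strands were searched, TTTAAA reads the same on both, and overlapping matches were each counted. A match is a run of letters and was not tested for binding.

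The 150 bases before the start are shown for a helicase gene and a G1 kinase gene with E2F words, and for 3 G2/M genes with CHR and CCAAT words, all 5 of which recur in the results. Capitals mark the matches, in the orientation of the gene. In Mcm6 the first run of capitals joins a pair of overlapping E2F words on opposite strands, and Cdk1 is the G2/M gene with an E2F word. The positions are chr1:128359706-128359855 (Mcm6), chr10:128705052-128705201 (Cdk2), chr10:69352913-69353062 (Cdk1), chr11:99024190-99024339 (Top2a) and chr7:135716380-135716529 (Mki67), all on the minus strand of GRCm38.p6.
Mcm6: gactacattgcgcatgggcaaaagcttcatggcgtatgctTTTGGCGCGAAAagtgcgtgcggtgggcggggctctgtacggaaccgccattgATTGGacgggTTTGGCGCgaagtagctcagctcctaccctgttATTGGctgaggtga
Cdk2: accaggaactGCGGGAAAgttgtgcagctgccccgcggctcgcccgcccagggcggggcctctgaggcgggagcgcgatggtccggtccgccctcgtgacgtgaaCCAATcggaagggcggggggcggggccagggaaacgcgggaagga
Cdk1: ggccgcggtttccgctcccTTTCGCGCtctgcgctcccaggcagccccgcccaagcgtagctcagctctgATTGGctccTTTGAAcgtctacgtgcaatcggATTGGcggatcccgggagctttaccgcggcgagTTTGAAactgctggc
Top2a: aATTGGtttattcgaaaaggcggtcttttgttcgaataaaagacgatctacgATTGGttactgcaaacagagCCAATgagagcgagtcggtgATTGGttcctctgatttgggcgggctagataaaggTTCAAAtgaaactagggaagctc
Mki67: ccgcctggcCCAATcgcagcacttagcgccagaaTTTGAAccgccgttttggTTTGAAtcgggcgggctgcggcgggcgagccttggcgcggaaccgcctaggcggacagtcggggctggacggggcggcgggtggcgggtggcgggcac

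The microRNAs that the knockout label removes are shown because Ccnd1, one of the G1/S genes, is a reported target of miR-17 and miR-20a. Mature sequences are from RefSeq (GRCm38.p6), with the seed, bases 2 to 8, in capitals. miR-17-5p and miR-20a-5p share 1 seed, as do miR-19a-3p and miR-19b-3p, while miR-18a-5p and miR-92a-3p each have their own.
miR-17-5p: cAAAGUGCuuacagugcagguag
miR-20a-5p: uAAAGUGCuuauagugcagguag
miR-18a-5p: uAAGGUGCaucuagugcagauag
miR-19a-3p: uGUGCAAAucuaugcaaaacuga
miR-19b-3p: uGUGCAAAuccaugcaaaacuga
miR-92a-3p: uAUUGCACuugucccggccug

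**Figure D1:**
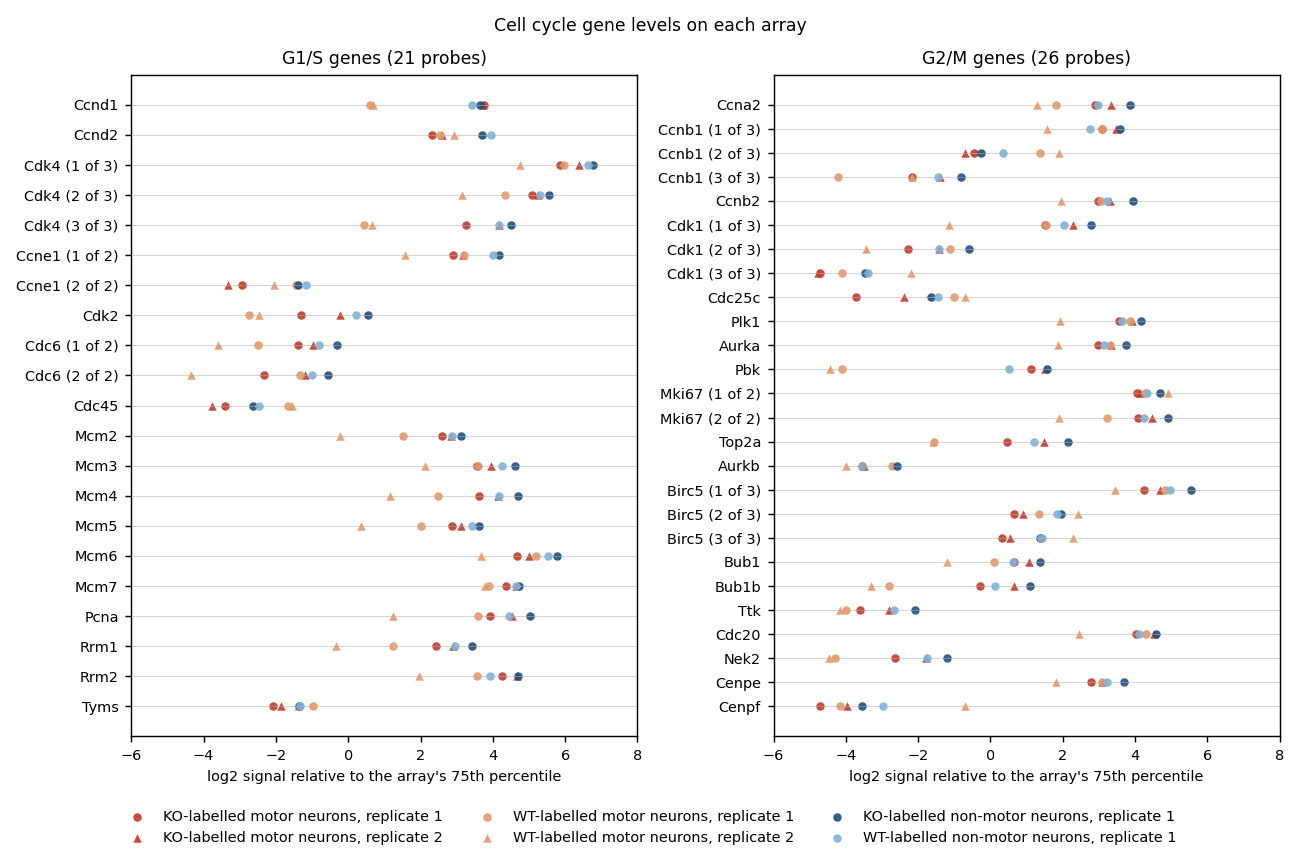
Level of each tested probe of the G1/S genes (left, 21 probes) and G2/M genes (right, 26 probes) on each of the 6 arrays, as log2 signal relative to the array's 75th percentile. Each point is 1 array. Replicate 2 of the wild-type-labelled motor neurons is the lowest of the 6 arrays on 32 of 47 probes, replicate 1 on 4, and the knockout-labelled motor neuron replicates on 7 and 4. Levels of different probes are not comparable with each other.

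The comparison of cell fractions asks how far the sorted motor neurons differ from the rest of the cord in cell cycle transcripts. Within the knockout-labelled arrays, both motor neuron arrays lay below the non-motor-neuron array on 46 of 47 member probes, against 45.2% of all 33264 tested probes. The median log2 difference of the members was -0.81, against -0.14 over all tested probes, and it was -0.80 for the G1/S and -0.84 for the G2/M probes. Per probe the differences ran from -1.74 to 0.11. With a single non-motor-neuron array per label, limma called 0 of 47 member probes, and 0% of all tested probes, at an adjusted p under 0.05. At an unadjusted p under 0.05, 1 member was lower, against 3.2% of all. The exception in direction was Ccnd1, which encodes cyclin D1, the partner of CDK4. It had 3.77 and 3.73 in knockout-labelled motor neurons, against 3.64 in knockout-labelled non-motor neurons.

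Among individual genes, those with the highest mean level in 3 of the roles are given first. Over all 47 member probes the quartiles of the difference within the knockout label were -1.04 and -0.60. The gaps of Plk1 (-0.42) and Rrm2 (-0.22) were narrower than that range. Mcm6, a subunit of the replicative helicase, had 4.67 and 5.01 in knockout-labelled motor neurons, against 5.77 in the knockout-labelled non-motor neurons. Plk1, a mitotic kinase, had 3.56 and 3.92 in knockout-labelled motor neurons and 4.16 in non-motor neurons of that label. Rrm2, the ribonucleotide reductase subunit that supplies deoxynucleotides, had 4.27 and 4.67 in knockout-labelled motor neurons, against 4.69 in knockout-labelled non-motor neurons. On all 3 genes both motor neuron arrays lay below their counterpart, and Rrm2 was nearly level on replicate 2. Top2a, the topoisomerase that untangles replicated DNA, showed a wider gap, with 0.46 and 1.49 in knockout-labelled motor neurons and 2.13 in non-motor neurons.

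Within the wild-type-labelled arrays the pattern was wider and less even. Both motor neuron arrays lay below the non-motor-neuron array on 32 of 47 member probes (38% of all tested probes), 19 of 21 for G1/S and 13 of 26 for G2/M. Both lay above it on 4 probes, 1 each of Cdc45, Ccnb1, Cdc25c and Birc5, against 39.6% of all. The median log2 difference was -1.64 for the G1/S and -0.76 for the G2/M probes, against 0.01 over all tested probes. limma called 3 member probes lower, against 1.51% of all probes, and 0 higher (1.04% of all). This fit sets 2 arrays against 1, and its spread comes from the motor neuron pairs of both labels, so the lone non-motor-neuron array is assumed to vary like them. They were Pbk (adjusted p = 0.0229), 1 of 3 Cdk4 probes (adjusted p = 0.0349) and Bub1b (adjusted p = 0.0483). Pbk and Bub1b were not above background on either wild-type-labelled motor neuron array, so their fitted p-values rest on background-level signals, and they were at least 6.61-fold and 5.04-fold lower there than in wild-type-labelled non-motor neurons.

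**Figure D2:**
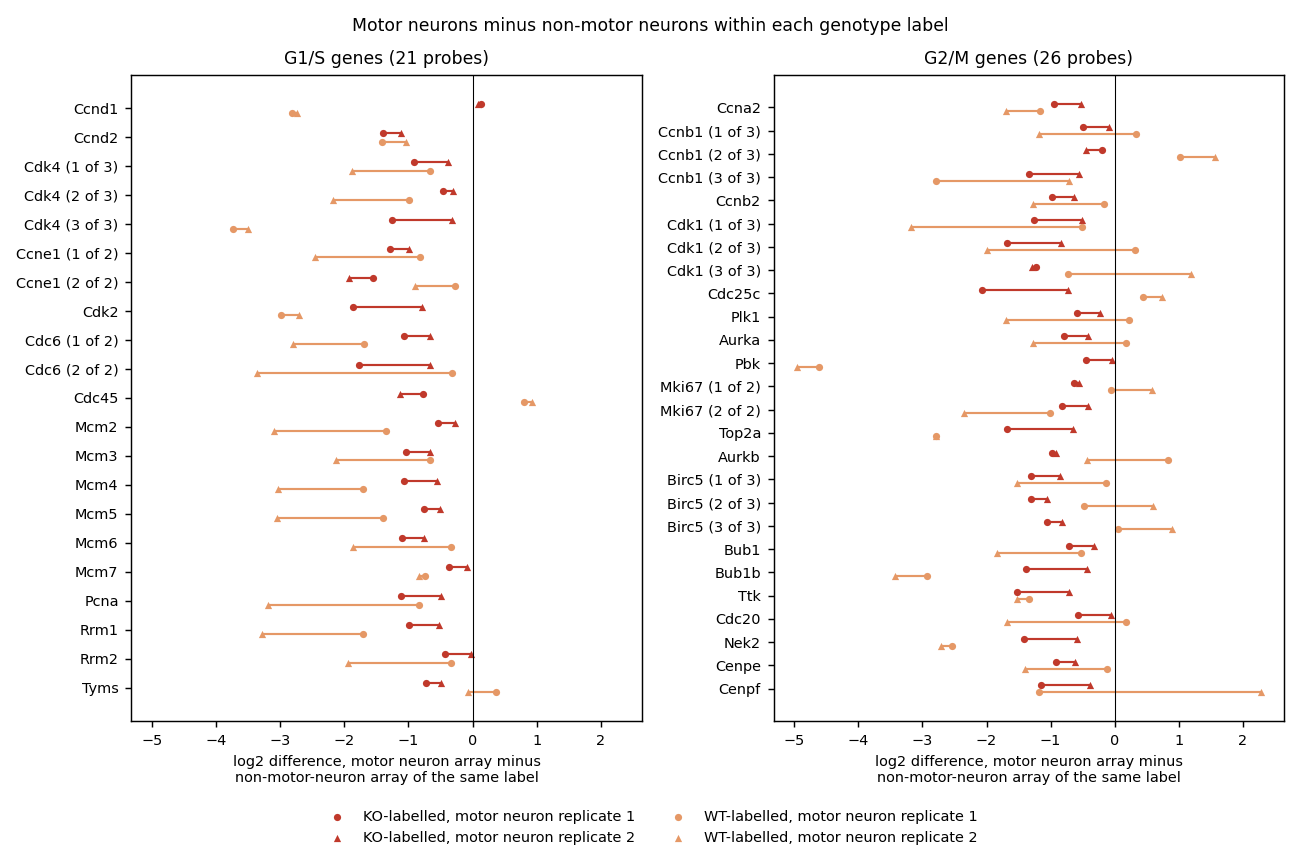
Log2 difference between each motor neuron array and the non-motor-neuron array of the same genotype label, for each tested probe (G1/S left, G2/M right). Points are single motor neuron arrays and lines join the replicates of a label. Knockout-labelled values lie below 0 on 46 of 47 probes, while wild-type-labelled values spread over both sides of 0 for the G2/M genes.

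Fitted over both labels, motor neurons minus non-motor neurons, 46 of 47 member probes had a difference below 0, against 54.1% of all tested probes. The median was -1.31 for the G1/S and -0.77 for the G2/M probes, against -0.09 over all. limma called 0 of them at an adjusted p under 0.05 (0.854% of all probes), and 15 were lower and 0 higher at an unadjusted p under 0.05, against 10.1% lower and 8.99% higher over all. The count of 0 lower became 4 (840 of all 33264 probes) on the 4 arrays that share a tag, with the tag as a block. It became 6 (651 of all) without knockout-labelled motor neuron replicate 2 and 6 (1083 of all) on slide row 2 alone. The count also changed without the knockout-labelled non-motor neurons, which left 1 non-motor-neuron array. All 4 motor neuron arrays lay below both non-motor-neuron arrays on 18 of 47 probes, 14 of the G1/S and 4 of the G2/M probes, against 14.8% of all probes. Cdk2, the cyclin E kinase, was among the 18, with -1.32 and -0.23 in knockout-labelled and -2.75 and -2.47 in wild-type-labelled motor neurons, against 0.55 and 0.23 in non-motor neurons of the knockout and wild-type labels. Neither wild-type-labelled motor neuron array was above background for Cdk2, so no size is given for the pooled difference, whose adjusted p was 0.101 (limma).

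Markers of other cells moved between the same fractions, and their part in these differences was not tested. The summed signal of 9 tested neural progenitor markers (signal over the array's 75th percentile) was 115 and 135 in knockout-labelled and 65.8 and 34.3 in wild-type-labelled motor neurons, against 104 and 92.3 in non-motor neurons of the knockout and wild-type labels, with 7 to 9 of 9 above background on each array. Both knockout-labelled motor neuron sums thus lay above both non-motor-neuron sums, and both wild-type-labelled ones below. On the knockout-labelled motor neuron arrays the brightest of these probes, which weigh most in a sum, were Vim (6.01 and 6.24) and Fabp7 (5.21 and 5.36). Within the knockout label 4 of 9 progenitor probes were lower in motor neurons. Among them were Sox9 (-0.31 and 0.07, against 0.76) and Hes1 (-1.35 and -0.74, against -0.39). The sum of 9 erythroid markers was 247 to 578 on the 4 motor neuron arrays, against 1388 and 1515 in the non-motor neurons, and that of 7 mesenchymal markers was 315 to 512, against 1070 and 770. The sum of 6 neural crest and Schwann lineage markers was 99.5 and 56.2 in knockout-labelled and 58.3 and 38.9 in wild-type-labelled motor neurons. It was 13.9 and 10.3 in non-motor neurons of the knockout and wild-type labels, so this list was higher in motor neurons. Of its 6 probes, limma called 2 higher in motor neurons and 0 lower. The sum of motor neuron markers (8 of 9 tested) was 33.5 and 39.9 in knockout-labelled and 12.0 and 8.14 in wild-type-labelled motor neurons. In non-motor neurons of the knockout and wild-type labels it was 5.19 and 3.42. Not every marker followed the sort. Isl1 had 0.05 and 0.12 in wild-type-labelled motor neurons, against 0.09 in wild-type-labelled non-motor neurons. Prph had 0.11 and -0.99 in the same motor neurons, against -0.55, and 3.97 and 4.04 in knockout-labelled motor neurons. Of the 9 motor neuron probes within the wild-type label, 1 had a difference below 0, and the median was 2.18. The sum of 9 microglia and macrophage markers was 25.3 and 27.6 in knockout-labelled and 8.65 and 13.3 in wild-type-labelled motor neurons, against 26.7 and 15.5 in non-motor neurons of the knockout and wild-type labels. In these bulk samples, fewer cycling cells and less RNA per cell cannot be told apart.

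The next question is whether these transcripts differ between the genotype labels in motor neurons. Of 47 member probes, 11 were higher in knockout-labelled motor neurons and 3 lower, which is 29.8% of them. Over all tested probes 24.8% were called, 10.6% higher and 14.2% lower, so the number of members called was near the background. Among tested probes matched to a gene the shares were 14.6% higher and 7.44% lower, and among members 23.4% and 6.38%. The members' median log2 difference was 0.90, 1.44 for G1/S and 0.75 for G2/M, against -0.20 over all tested probes and 0.27 over the 19602 tested probes matched to a gene. The median and the counts moved with the scaling and with wild-type-labelled replicate 2. With each array's median subtracted, 20 member probes were higher and 0 lower, against 7281 and 2569 of all 33264 tested probes. The median of all tested probes then moved to 0.44. With quantile normalization 6 member probes were higher and 0 lower, against 1578 higher and fewer lower among all 33264. Without wild-type-labelled replicate 2, 6 were higher and 0 lower and the G2/M median was -0.06. Calls over all tested probes, higher and lower, also fell without that replicate. Both knockout-labelled arrays lay above both wild-type-labelled ones on 20 member probes (29.8% of all) and below both on 9 (39.7% of all). All 14 calls were lost without the filter on dim probes and in the additive model. In those settings 0 of all 55669 and 0 of all 33264 probes were called.

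Markers of other cells moved between the labels in the same motor neuron arrays. Of 12 probes of 9 microglia and macrophage genes, 7 were higher in knockout-labelled motor neurons and 0 lower, with a median of 1.88. Tyrobp, a signalling adaptor of these cells, was at least 12.2-fold higher and Mrc1, their mannose receptor, at least 9.35-fold higher. Tyrobp, C1qa and Mrc1 were above background on both knockout-labelled motor neuron arrays and on neither wild-type-labelled one. The summed signal of the list was 25.3 and 27.6 in knockout-labelled motor neurons, against 8.65 and 13.3 in wild-type-labelled ones, so the groups did not overlap. Of the 9 neural progenitor probes 2 were higher and 0 lower, with the sums given above, and of 9 motor neuron marker probes 4 were higher and 0 lower. Sums of 2 other lists were higher in wild-type-labelled motor neurons. For 8 pan-neuronal markers they were 652 and 916 there, against 490 and 357 in knockout-labelled ones. Of their 14 probes, 2 were higher in the knockout label and 2 lower. For 6 endothelial markers the sums were 16.5 and 115, against 8.86 and 14.3. The 115 was on replicate 2, where 1 Kdr probe had 6.83. Of the 7 endothelial probes, 2 were higher in the knockout label and 0 lower. The part of these cells in the member differences was not tested.

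Among the G1 cyclins and kinases, Ccnd1 had 3.77 and 3.73 in knockout-labelled motor neurons, against 0.60 and 0.68 in wild-type-labelled ones. The groups did not overlap, and the log2 difference was 3.11 ± 0.51 (limma, adjusted p = 0.0094, with SE and n = 2 against 2). With 3.64 and 3.42 in non-motor neurons of the knockout and wild-type labels, the low values were those of the wild-type-labelled motor neurons. Ccnd2, encoding cyclin D2, gave -0.28 ± 0.52 (adjusted p = 0.709). Cdk4 was called on 1 of its 3 probes, with 3.25 and 4.17 in knockout-labelled and 0.43 and 0.66 in wild-type-labelled motor neurons (difference 3.16 ± 0.55, adjusted p = 0.0104), while the other probes gave 0.77 and 1.44 and were not called. Cdk2 was not above background on either wild-type-labelled motor neuron array and was at least 2.69-fold higher in knockout-labelled ones (adjusted p = 0.0442). The Cdk2 call was lost without any 1 of the 4 motor neuron arrays (log2 difference 1.30 to 2.38), with quantile normalization (adjusted p = 0.0656) and with normexp background correction, where the log2 difference was 0.314, below that bound. Ccnd1 and the called Cdk4 probe stayed past the threshold whichever of the 6 arrays was left out, and with the 75th percentile as a covariate the Cdk4 call was lost (adjusted p = 0.0647).

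Of the 9 probes of origin licensing and helicase genes, 3 rose, 1 fell and 5 did not pass. Mcm2 had 2.58 and 2.85 in knockout-labelled motor neurons and 1.52 and -0.22 in wild-type-labelled ones (2.06 ± 0.65, adjusted p = 0.0464). Mcm4 had 3.63 and 4.14 in knockout-labelled and 2.47 and 1.16 in wild-type-labelled motor neurons (2.07 ± 0.60, adjusted p = 0.0369). These helicase subunits did not overlap between the labels, but the wild-type-labelled replicates differed by more than 1 log2 unit. Both calls were lost without either knockout-labelled replicate or without wild-type-labelled replicate 2, which gave Mcm2 1.19 (adjusted p = 0.165) and Mcm4 1.42 (adjusted p = 0.125). Both were also lost with quantile normalization (adjusted p = 0.119 for Mcm2 and 0.0821 for Mcm4), and Mcm2 with normexp (0.054). The other 4 MCM subunits on the list, Mcm3, Mcm5, Mcm6 and Mcm7, gave differences of 0.41 to 1.80 that did not pass. On 1 of 2 probes Cdc6, which loads the helicase, was not above background in wild-type-labelled motor neurons and was at least 2.04-fold higher in knockout-labelled ones (adjusted p = 0.0432). That Cdc6 call was lost without either knockout-labelled replicate or without wild-type-labelled replicate 2 (1.32 to 2.08), with quantile normalization (adjusted p = 0.0733) and with normexp, where the log2 difference was 0.138 (adjusted p = 0.888), below the bound. Cdc45, which activates the helicase, went the other way, with -3.42 and -3.77 in knockout-labelled and -1.67 and -1.54 in wild-type-labelled motor neurons (-1.99 ± 0.51, adjusted p = 0.0266), and knockout-labelled replicate 1 was not above background. The Cdc45 call was lost without the same 3 arrays (-2.17 to -1.81) and with median scaling, quantile normalization and normexp (adjusted p = 0.106, 0.0835 and 0.249).

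At the replication fork, Rrm1, the large ribonucleotide reductase subunit, had 2.43 and 2.89 in knockout-labelled motor neurons, against 1.24 and -0.33 in wild-type-labelled ones (2.21 ± 0.63, adjusted p = 0.0355, limma). Its groups did not overlap, and the call was lost without knockout-labelled replicate 2 (1.98) or wild-type-labelled replicate 2 (1.42) and with quantile normalization (adjusted p = 0.0986). Pcna, the sliding clamp, had 3.91 and 4.52 in knockout-labelled motor neurons, against 3.59 and 1.24 in wild-type-labelled ones, and the difference of 1.80 ± 0.76 did not pass (adjusted p = 0.105). Rrm2 gave 1.70 ± 0.63 (adjusted p = 0.0761), and Tyms, thymidylate synthase, -0.79 ± 0.52 (adjusted p = 0.275).

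**Figure D3:**
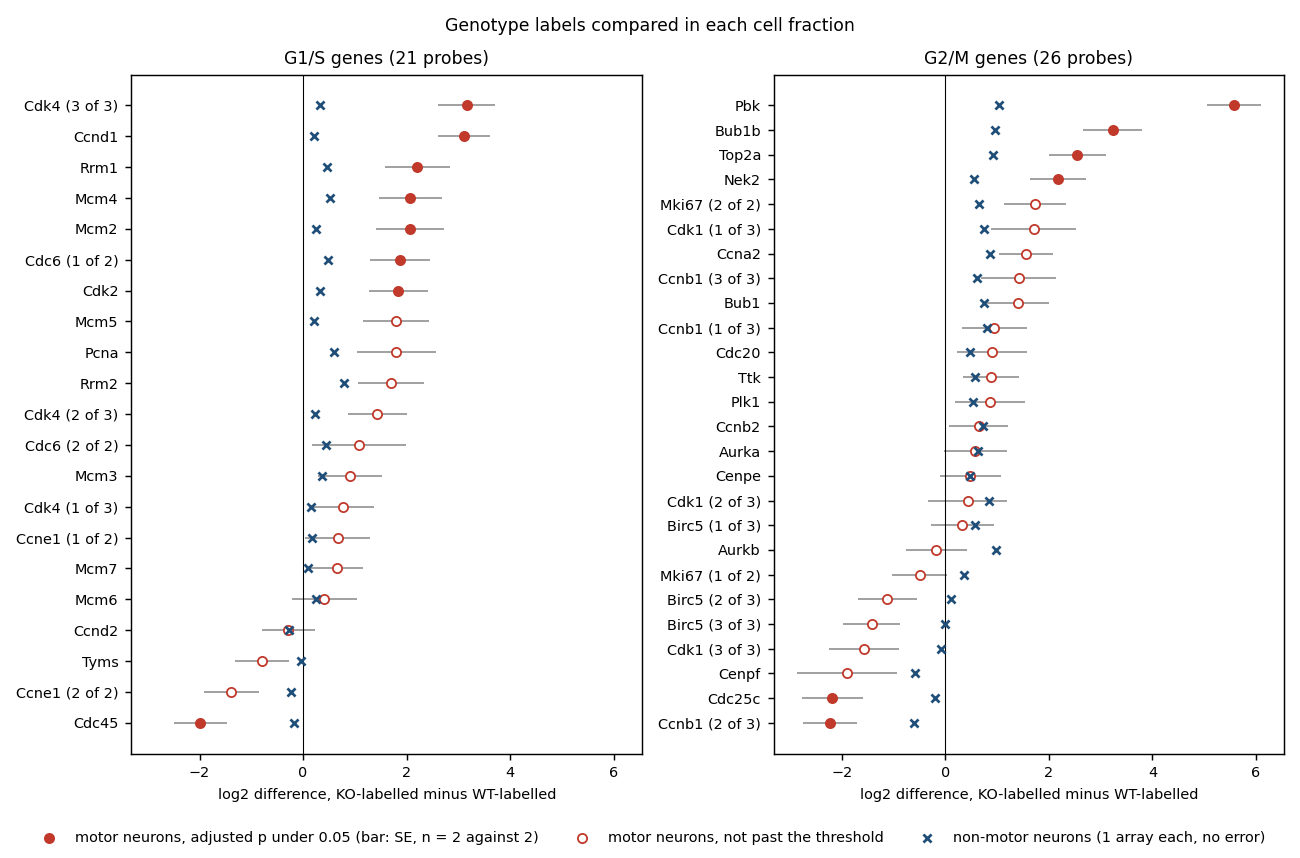
Log2 difference, knockout-labelled minus wild-type-labelled, for each tested probe in motor neurons (circles, with SE bars, n = 2 against 2; filled where the limma adjusted p is under 0.05) and in the unreplicated pair of non-motor-neuron arrays (crosses). The 11 higher and 3 lower calls lie at the ends of each panel, and the crosses lie between -0.61 and 1.04.

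Among the mitotic cyclins and entry kinases, Pbk, a mitotic kinase of dividing progenitors, had 1.11 and 1.52 in knockout-labelled motor neurons, against -4.10 and -4.44 in wild-type-labelled ones, where it was not above background. It was at least 11.4-fold higher in knockout-labelled motor neurons (adjusted p = 0.00678, limma). With normexp the Pbk log2 difference was 1.91 (adjusted p = 0.049), below that bound. In non-motor neurons of the knockout and wild-type labels it had 1.56 and 0.52. Cdc25c, the phosphatase that activates CDK1, had -3.71 (not above background) and -2.38 in knockout-labelled and -1.01 and -0.71 in wild-type-labelled motor neurons (-2.18 ± 0.60, adjusted p = 0.0309). One Ccnb1 (cyclin B1) probe was lower, with -0.47 and -0.71 in knockout-labelled and 1.36 and 1.91 in wild-type-labelled motor neurons (-2.23 ± 0.52, adjusted p = 0.0211). Both lower calls were lost without knockout-labelled replicate 1 or wild-type-labelled replicate 2, that of Ccnb1 also without knockout-labelled replicate 2, and both with median scaling, quantile normalization and normexp (-1.59, -2.33 and -1.41 for Ccnb1, and -1.55, -1.89 and -1.04 for Cdc25c). The other 2 Ccnb1 probes gave 0.95 and 1.42 and were not called. Plk1 and Aurka gave 0.86 and 0.58 and did not pass.

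Of the chromosome and spindle genes, Top2a had 0.46 and 1.49 in knockout-labelled motor neurons, against -1.58 and -1.58 in wild-type-labelled ones (2.55 ± 0.56, adjusted p = 0.0177, limma). The Top2a call was lost without knockout-labelled replicate 2 (2.04) and with normexp (adjusted p = 0.238). Bub1b, which encodes the checkpoint kinase BUBR1, had -0.29 and 0.65 in knockout-labelled motor neurons, against -2.80 and -3.29, not above background, in wild-type-labelled ones. It was at least 5.22-fold higher in knockout-labelled motor neurons (adjusted p = 0.0104). The Bub1b call was kept whichever of the 6 arrays was left out, but lost with normexp, where the log2 difference was 1.11 (adjusted p = 0.255), below the bound, and with the 75th percentile as a covariate (adjusted p = 0.057). Nek2, a centrosome kinase, had -2.63 and -1.79 in knockout-labelled motor neurons, and -4.30 and -4.46 in wild-type-labelled ones, where neither array was above background, so no fold is given (adjusted p = 0.0245). With normexp background correction its sign turned, to -0.16, and the Nek2 call was lost without replicate 2 of either label (1.75 and 2.09). The spindle and checkpoint genes Bub1, Cdc20 and Cenpe gave differences of 1.41, 0.91 and 0.48, and none passed.

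Probes of 1 gene could disagree. Of the 7 members with more than 1 tested probe, all probes had the same sign of difference for 7 genes between motor neurons and non-motor neurons within the knockout label, for 6 when both labels were fitted together, for 3 within the wild-type label and for 2 (Cdc6 and Cdk4) between labels in motor neurons. Birc5, encoding survivin, shows it. One of its 3 probes had 4.23 and 4.69 in knockout-labelled and 4.83 and 3.44 in wild-type-labelled motor neurons. Another had 0.64 and 0.89 in knockout-labelled motor neurons and 1.35 and 2.42 in wild-type-labelled ones. Between the wild-type-labelled replicates, replicate 2 was the lower on the first probe and the higher on the second, although both are assigned to the same gene. Mki67, the gene of the proliferation antigen Ki-67, did the same. One probe had 4.06 and 4.14 in knockout-labelled motor neurons and 4.27 and 4.91 in wild-type-labelled ones, and the other had 4.08 and 4.48 in knockout-labelled and 3.23 and 1.89 in wild-type-labelled motor neurons.

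**Figure D4:**
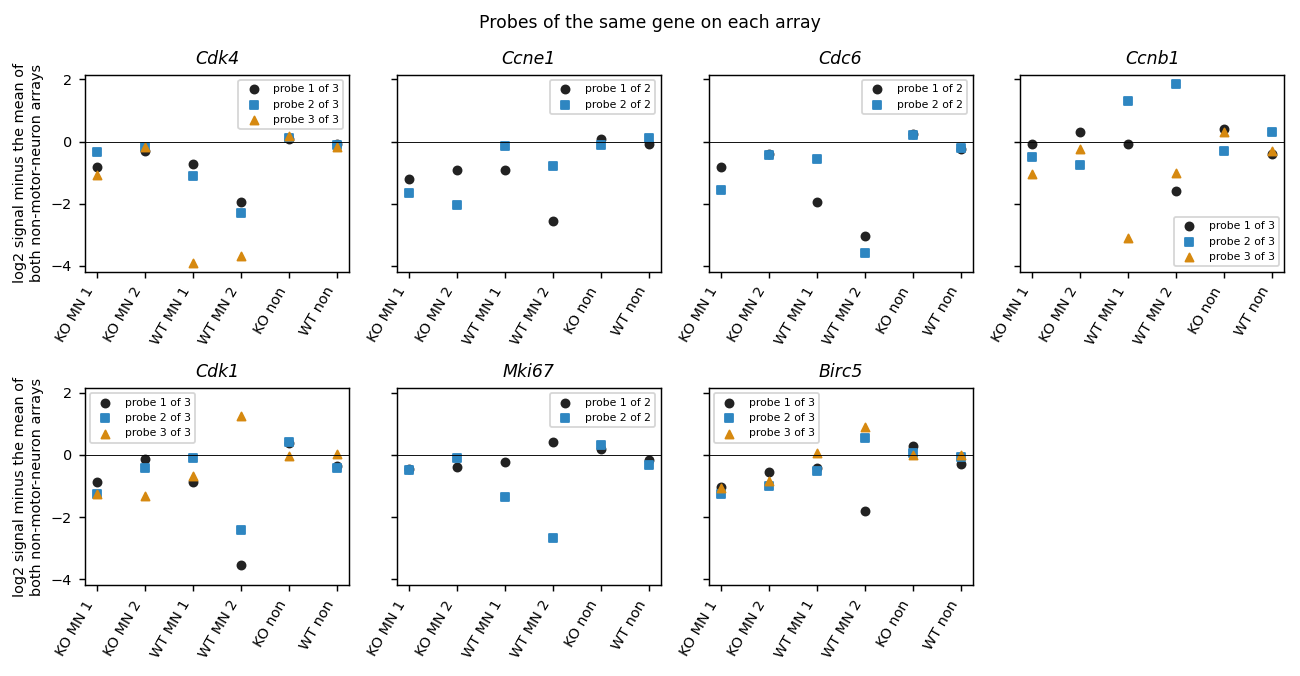
Signal of each tested probe of the 7 genes with more than 1, by array (KO and WT for the genotype label, MN for motor neurons, non for non-motor neurons, and the replicate number), as log2 signal minus the mean of both non-motor-neuron arrays. Each point is 1 probe on 1 array. On the knockout-labelled motor neuron arrays all but 1 point lie below 0, the exception being a Ccnb1 probe on replicate 2. On the wild-type-labelled ones the probes of Ccnb1, Cdk1, Mki67 and Birc5 lie on both sides of it.

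In non-motor neurons each label had a single array, so the values have no error and no test. Member probes were higher in the knockout-labelled array on 38 of 47, against 47.4% of all tested probes. The median log2 difference was 0.24 for G1/S and 0.60 for G2/M, against -0.03 over all, and the range was -0.61 to 1.04. A difference of more than 1.5-fold upward was seen on 15 probes (9.18% of all) and downward on 1 (16.3% of all). Pbk (1.04), Aurkb, the chromosomal passenger kinase (0.97), and Bub1b (0.96) differed most. Markers of other cells also differed between these 2 arrays. Non-motor neurons of the knockout and wild-type labels had summed progenitor signals of 104 and 92.3, mesenchymal sums of 1070 and 770 and microglia and macrophage sums of 26.7 and 15.5, and the part of these in the result was not tested.

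The interaction asks whether the label difference itself differed between motor neurons and non-motor neurons. limma called 0 of 47 member probes, and 0% of all tested probes. At an unadjusted p under 0.05, 4 members were higher and 0 lower, against 4.59% and 3.84% of all. The 4 were Ccnd1 (2.89 ± 0.87), 1 probe of Cdk4 (2.83 ± 0.95), Pbk and Bub1b, with adjusted p from 0.517 to 0.587 (limma). For Pbk and Bub1b no size is given, since neither wild-type-labelled motor neuron array was above background, and each label has 1 non-motor-neuron array. These 4 differences are not shown to be particular to motor neurons.

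Further genes of the same pathways were read from lists drawn up by function. Their counts between labels stand against 10.6% of all tested probes higher and 14.2% lower, with a median of -0.20, and 14.6% and 7.44% of gene-matched probes, with a median of 0.27. Of 39 probes for 33 other replication genes (origin recognition, polymerases, clamp loaders), 3 were higher and 4 lower in knockout-labelled than in wild-type-labelled motor neurons. The median difference was 0.12, below the 0.27 of gene-matched probes. The higher count is under both shares. The lower count is under the 14.2% of all probes but above the 7.44% of gene-matched probes. The histone chaperone gene Chaf1a (2.85), the origin recognition gene Orc5, at least 1.69-fold higher, and the clamp loader gene Rfc2 (1.79) were higher, and both probes of Cdc7, the kinase that fires origins, were lower (-2.77 and -1.86), with Orc4 (-1.67) and 1 of 2 probes of Uhrf1, a DNA methylation maintenance gene (-2.05, against 1.03, adjusted p = 0.22, on the other probe). Of 43 probes for 32 other mitosis genes, 12 were higher and 0 lower, with a median of 0.98. The kinetochore gene Nuf2 was at least 3.57-fold higher and Espl1, encoding separase, at least 2.43-fold higher, and Bub3, the checkpoint partner of BUBR1, was higher by 3.03 ± 0.59. Of 7 probes for 6 cell cycle exit genes, 2 were higher, Cdkn2c, an inhibitor of CDK4 and CDK6 (1.99 ± 0.58), and 1 of 2 Btg1 probes (2.42 ± 0.60), and 0 were lower. Between motor neurons and non-motor neurons none of the 3 lists had a probe called (0 of 39, 43 and 7), with 7, 13 and 0 lower and 0, 1 and 0 higher at an unadjusted p under 0.05, and medians of -0.71, -0.96 and -0.41. Over all tested probes 0.854% were called in that comparison, 10.1% were lower and 8.99% higher at an unadjusted p under 0.05, and the median was -0.09.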

How the data were processed

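RNA from 6 sorted samples was labelled with Cy3 and read on 1-colour Agilent arrays on 1 slide. The deposited scanner files give each spot's processed signal as an intensity, background-subtracted and not scaled between arrays, per the file headers (version 10.5.1.1 of Feature Extraction, where the submitters' processing notes give 9.1). The authors' deposited value table is in log2 and matched the values used here within 0.01. Here log2 processed signals were averaged over unflagged spots of a probe, minus the array's 75th percentile over probes. Probes were named through RefSeq accessions (26300 of 55681). All 33264 probes above background on at least 2 arrays were fitted with limma 3.58.1 in R 4.3.3 and adjusted by Benjamini-Hochberg, threshold 0.05. Cell fractions used an additive model with 3 residual degrees of freedom. Genotype labels, the interaction and contrasts within a label used 4 group means with 2. With 2 against 2, an exact permutation test of 1 probe cannot go below p = 0.333. A "not above background" group was replaced by the lowest signal called above background on each array, or the probe's own signal if higher, to give "at least" folds. The members and lists were chosen with earlier results of these data known. Members named with values were those called in a comparison and, per role, those with the highest mean or the largest difference; others serve as examples chosen after their values were seen. The steps were tested on simulated data. The normexp alternative used median signals.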

Additional observations from a re-analysis of the deposited data

How the results depend on the processing

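Limits: 2 arrays a group, 3 dim motor neuron arrays (75th percentile 59.9 units for knockout-labelled replicate 1, and 48.5 and 64.5 for the wild-type-labelled replicates), and label confounded with slide row. Counts of member probes higher and lower in knockout-labelled than in wild-type-labelled motor neurons (11 and 3) were 20 and 0 with each array's median subtracted, 6 and 0 with quantile normalization, 0 and 0 without a filter on dim probes (0 of all 55669 probes called) and in the additive model, and 2 and 1 with the array's 75th percentile as a covariate. Under normexp 0 were lower and Nek2 gave -0.16. Leaving out 1 array gave 4 to 23 higher and 0 to 7 lower, a G1/S median of 0.627 to 2.03 (main 1.44) and a G2/M median of -0.063 to 1.25 (main 0.75). The lowest medians were without wild-type-labelled motor neuron replicate 2 and the highest counts without replicate 1 (23 and 7). Without knockout-labelled replicate 1 there were 7 and 0, and without replicate 2, 4 and 1. The G2/M median was 1.39 with each array's median subtracted. Of the 14 calls, 11 were kept with median scaling, 6 with quantile normalization, 5 with normexp (Ccnd1, Cdk4, Mcm4, Pbk and Rrm1) and 3 with the covariate (Ccnd1, Cdc25c and Pbk). Pbk, Ccnd1, Bub1b and the called Cdk4 probe stayed past the threshold whichever array was left out. Calls over all 33264 tested probes changed too. They were 3524 higher and 4733 lower in the main fit, and 7281 and 2569 with each array's median subtracted. They also changed with each motor neuron array left out, so member counts cannot be compared between settings on their own. The cause of these changes was not tested.

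For the cell fractions, the count of members lower in motor neurons (0) was 1 among probes above background on all arrays, 4 with the replicate block by shared tag, 6 on slide row 2 and 3 within the wild-type label, and 0 to 6 when 1 array was left out. Their medians kept their sign under every alternative run. The interaction count (0 higher) was 1 with each array's median subtracted. The same-numbered motor neuron arrays did not deviate together (correlation -0.0964 over 33264 probes), so replicate numbers were not taken as pairs. A replicate block in the motor neuron arrays gave 13 higher and 4 lower members (3703 and 5501 of all 33264 probes), and in the additive model 0 lower.

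Added after seeing the data: within the knockout label, probes with both motor neuron arrays below were counted under other settings. They were 41 of 47 members with each array's median subtracted (37.4% of all tested probes) and 35 of 47 with normexp (25.5% of all). With quantile normalization they were 46 of 47 (43.6% of all). Among probes above background on all arrays they were 31 of 32 members (40% of all such probes).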
